A study of Drosophila melanogaster with 12 samples.

Results

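The abundant long non-coding RNAs of the male reproductive tract of Drosophila melanogaster were examined. They were the genes whose FlyBase symbol starts with lncRNA: (long non-coding RNA) or asRNA: (antisense RNA) and whose mean level over the 12 libraries was 10 CPM or more. CPM is the count of a gene divided by the sum of all gene counts of its library, times 1000000. Of 17559 genes in the tables, 2262 carried such a symbol, and 218 of these were members, 163 named lncRNA and 55 named asRNA. The rule left out 2 genes, which are not reported here. All 218 members passed the filter on low counts of the tests. Members were thus chosen by their measured mean level, so their levels are given as a description and only the age, regime and population differences were tested.

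Long non-coding RNAs are transcripts with no long reading frame. Many of them in the fly are made in the testis, where primary spermatocytes switch on a large set of genes that other tissues leave silent. A few have a known part to play. The roX RNAs join the MSL protein complex that raises transcription of the single male X chromosome, Hsromega builds nuclear omega speckles that hold RNA-binding proteins, and iab8 is read through the bithorax complex of segment identity genes and has a form made in the secondary cells of the accessory gland. An antisense RNA is read from the strand opposite to another gene, usually a coding one.

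Tracts of virgin males, each with accessory glands, testes and ejaculatory duct, were sequenced as stranded total RNA. The males came from 6 populations of 1 base stock (IV) that had evolved for 168 generations, 3 in polygamous groups of 5 males with 5 females and 3 under enforced monogamy of 1 male with 1 virgin female. Groups were polygamous males at 96 h, monogamous males at 96 h, polygamous males at 48 h and monogamous males at 48 h of age, with 3 libraries each. A library was a pool of 30 tracts of 1 population, so the spread within a group holds differences between populations and between pools. No population had a second pool at an age, so these cannot be told apart.

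Gene counts per library ranged from 31367030 to 40581251, so that 3 counts were worth 0.0739 to 0.0956 CPM. The summed level of the 9 main cell markers of the accessory gland lay at 14936 to 17626 CPM at 96 h and at 7490 to 27313 CPM at 48 h, and that of the 9 spermatocyte and spermatid markers found lay at 9859 to 10931 CPM at 96 h and at 9796 to 13185 CPM at 48 h. The sum of 6 markers of the ejaculatory duct and bulb lay at 2225 to 4433 CPM at 96 h and at 3995 to 5389 CPM at 48 h. Of these, the bulb protein genes Ebp and EbpII had 516.5 and 144 CPM in monogamous population 1 and 492 and 138 CPM in monogamous population 3 at 96 h, against at most 8.36 and 5.68 CPM in the other 10 libraries. The part of this difference in the results was not tested, and calls for age averaged over regimes, 1 with all libraries, numbered 1 and 3 with the first or the second of these libraries left out. For those refits the share of all genes called is not given. The library of monogamous population 1 at 48 h stood apart. Its main cell sum was 7490 CPM, against 20833 to 27313 CPM in the other 5 libraries of 48 h, and its sum of 5 secondary cell markers was 143 CPM, against 791 to 1283 CPM. Its sums were the highest of the 48 h libraries for the 9 spermatocyte and spermatid markers (13185 CPM), 6 fat body markers (184 CPM) and 6 haemocyte markers (307 CPM). Of the fat body sum, apolpp made up 166 CPM, while Lsp2, Fbp1 and Fbp2 were higher in polygamous population 3 at 48 h and Yp1 had 0 CPM. The spermatid marker dj had 1631 CPM, against 1660 CPM in monogamous population 2 at 48 h. Its sums were the lowest of the 48 h libraries for 4 early male germline markers (125.5 CPM, against 131 to 146 CPM) and 5 muscle markers (1067 CPM, against 1351 to 1547 CPM). Single markers went the other way. The muscle marker Act87E was highest there (580 CPM, against 522 to 566 CPM), and Mlc2 (139 CPM) and bgcn (111 CPM) were not the lowest. All 5 secondary cell markers were detected in this library. In pooled tissue, fewer cells of a type and less RNA per cell cannot be told apart. Values without this population are given beside the main age, regime and population counts and beside several members.

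Members were short and mostly simple transcripts. Their merged exons spanned a median of 824.5 bp, with a range of 201 to 21710 bp, and 119 of 218 (54.6%) consisted of a single exon block, against 65.8% of the 2042 other lncRNA and asRNA genes and 14.5% of coding genes with 10 CPM or more. Per kilobase of merged exon, the median member stood at 22.1 CPM per kb, beside 22.4 CPM per kb for coding genes with 10 CPM or more and 0.54 CPM per kb for the other lncRNA and asRNA genes. Members took 1.10% to 1.31% of gene counts per library, highest in monogamous population 1 at 48 h, and held 79.7% of the counts of all lncRNA and asRNA genes together. Within the members the counts were concentrated, since 3 of them held 24.6% and 10 of them 50.4% of the sum. A mean of 100 CPM or more was reached by 18 members and a mean of 50 CPM by 28, while 117 averaged below 20 CPM. At the threshold of 10 CPM, lncRNA:CR43807 (10.01 CPM), lncRNA:CR46046 (10.09 CPM) and lncRNA:CR43104 (10.17 CPM) lay just inside, and asRNA:CR43433 (9.94 CPM), lncRNA:CR43914 (9.88 CPM) and lncRNA:CR44667 (9.78 CPM) just outside. In every library 152 members had 10 CPM or more, and 9 members fell below 5 CPM in at least 1.

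The X chromosome held the largest share of member counts. It held 25 members (11.5%), close to its 13.0% of the other lncRNA and asRNA genes and its 14.6% of all genes with 10 CPM or more. Those 25 nevertheless held 41.3% of member counts, with a median mean level of 45.2 CPM, against 16.5 to 19.8 CPM on the 4 large autosomal arms. Of the 10 members with the highest mean, 5 were X-linked, and of the 20 highest, 11. These levels are not corrected for length, and levels per kilobase are not given by chromosome. Chromosome 4 held 2 members and the Y chromosome none.

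The leading member, lncRNA:CR32652 (X, 12411018 to 12412181, minus strand, build BDGP6), had 1131, 1172 and 1236 CPM in polygamous males and 1209, 1363 and 1218 CPM in monogamous males at 96 h, and 1123, 1206 and 1193 CPM in polygamous males and 1483, 1335 and 1283 CPM in monogamous males at 48 h. The ages overlapped, the lowest value came from polygamous population 1 at 48 h and the highest from monogamous population 1 at 48 h. Next came lncRNA:CR32658 (X, mean 1045 CPM), lncRNA:CR32661 (X, 581 CPM), asRNA:CR44370 (2R, 573 CPM), lncRNA:CR9284 (2R, 494 CPM), lncRNA:CR44389 (2R, 488 CPM) and lncRNA:CR32690 (X, 467 CPM). Per kilobase the order changed, and lncRNA:CR44389, a single exon of 300 bp, led with 1626 CPM per kb, ahead of lncRNA:CR32652 with 1403, lncRNA:CR32658 with 1250, lncRNA:CR32661 with 889 and lncRNA:CR32657 with 743 CPM per kb. No function is annotated for these RNAs in the sources used here, and whether the X-linked leaders share sequence, and thereby reads, was not tested. Some members lay near each other: 13 pairs stood within 5000 bp, among them lncRNA:CR32657 and lncRNA:CR32658, with a gap of 3568 bp on the same strand of X. How often other genes lie as near was not tested.

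**Figure D1:**
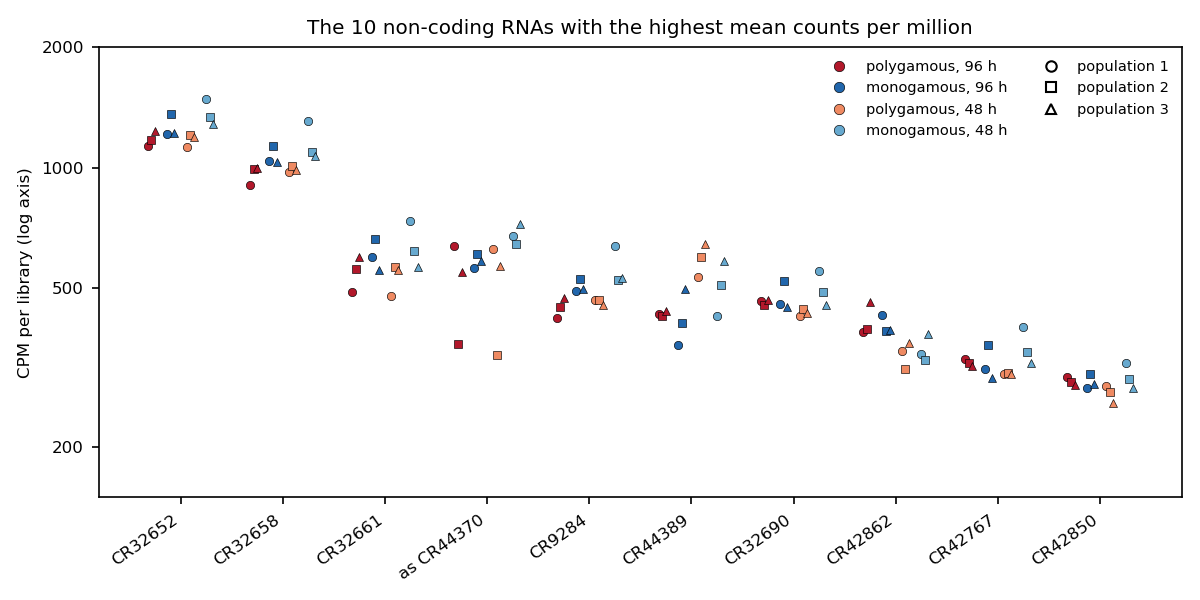
CPM per library on a log axis for the 10 members with the highest mean level, in order of that mean, with polygamous males at 96 h leftmost in each column and monogamous males at 48 h rightmost; each point is 1 library and its shape gives the population, and "as" before a number marks an asRNA gene. CPM is not corrected for length, so heights compare libraries of 1 gene; asRNA:CR44370 is low in both libraries of polygamous population 2 (362 and 340 CPM), and lncRNA:CR32658 is highest in monogamous population 1 at 48 h (1308 CPM).

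Members with a name of their own were few. These were roX1, which ranked 20 of 218 by mean level, and Hsromega, cherub, iab8 and Yu. roX1 (X, 3857230 to 3862697, minus strand), a core RNA of the dosage compensation complex, had 104, 106 and 120 CPM in polygamous males and 112, 105 and 111 CPM in monogamous males at 96 h, and 101, 81.4 and 101 CPM in polygamous males and 56.3, 81.7 and 103 CPM in monogamous males at 48 h. All 6 libraries of 96 h lay above all 6 of 48 h, by a narrow margin, and the lowest was monogamous population 1 at 48 h. The difference did not pass the test across all genes (log2 0.26 ± 0.12 SE, adjusted p = 0.317 by the quasi-likelihood test of edgeR; 0.16 ± 0.06 without monogamous population 1 and with population as a block). Its partner roX2 was no member, with 1.98 to 3.79 CPM over the 12 libraries. The 6 genes listed for dosage compensation, the complex members msl-1, msl-2, msl-3, mle and mof with the DNA-binding factor Clamp, had a median log2 difference between ages of 0.08, with 0 of 6 called at either age comparison by regime or on average; mle alone was called (log2 0.11 ± 0.03, adjusted p = 0.0247) once monogamous population 1 was left out and population was a block, a fit that called 22.1% of all genes and 29.8% of genes with 10 CPM or more for age.

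Hsromega (3R, 21296127 to 21317836, plus strand), the scaffold of omega speckles and a heat-shock locus, was the longest member and the lowest per kilobase, at 1.08 CPM per kb. Its level at 96 h was 21.1 CPM at the lowest, 22.0 at the median and 23.7 at the highest, against 22.2 CPM, 24.6 CPM and 26.6 CPM at 48 h. The ages overlapped, and the 96 h library was the lower in 6 of 6 populations. With population as a block it fell by 0.23 on the log2 scale (SE 0.05, adjusted p = 0.0485), and without the block the adjusted p was 0.0668. Of 8 omega speckle proteins and partners tested, such as Hrb87F, an hnRNP that binds Hsromega, and sqd, another hnRNP, 0 were called for age with or without the block, and their median log2 difference was 0.14. Without monogamous population 1 and with the block, 4 of the 8 were called higher at 96 h, by log2 0.11 to 0.15 (Hrb87F, TBPH, Saf-B and sqd), beside 22.1% of all genes and 29.8% of those with 10 CPM or more.

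The remaining named members did not pass the age test. cherub, known from larval brain stem cells, averaged 23.0 CPM and differed between populations (adjusted p = 0.0362 for populations within regimes, and 0.0575 without monogamous population 1). It was lowest in monogamous population 1, with 15.4 CPM at 96 h and 15.8 CPM at 48 h, against 20.9 to 28.1 CPM in the other 10 libraries. iab8 (3R, 14 exon blocks) had 15.0, 14.6 and 12.7 CPM in polygamous males and 14.5, 11.8 and 14.2 CPM in monogamous males at 96 h, and 16.3, 14.9 and 12.8 CPM in polygamous males and 3.25, 10.1 and 12.2 CPM in monogamous males at 48 h. Monogamous population 1 at 48 h was the lowest, followed by monogamous population 2 at 48 h, and the ages overlapped (log2 0.23 ± 0.24, adjusted p = 0.675; 0.01 ± 0.10 without monogamous population 1). The lowest library is also the library with the lowest secondary cell sum (143 CPM), and the part of that difference in the iab8 value was not tested. Among the 5 bithorax complex genes and cofactors listed, which include Abd-B, the Hox gene of secondary cell fate that is also in the secondary cell list, 0 were called for age with all libraries, and abd-A, Abd-B and exd fell without monogamous population 1 and with the block (log2 -0.18, -0.20 and -0.19), in the fit that called 22.1% of all genes and 29.8% of those with 10 CPM or more. Yu, at a mean of 11.7 CPM, ranged from 7.46 CPM in polygamous population 1 at 96 h to 17.2 CPM in monogamous population 1 at 48 h.

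**Figure D2:**
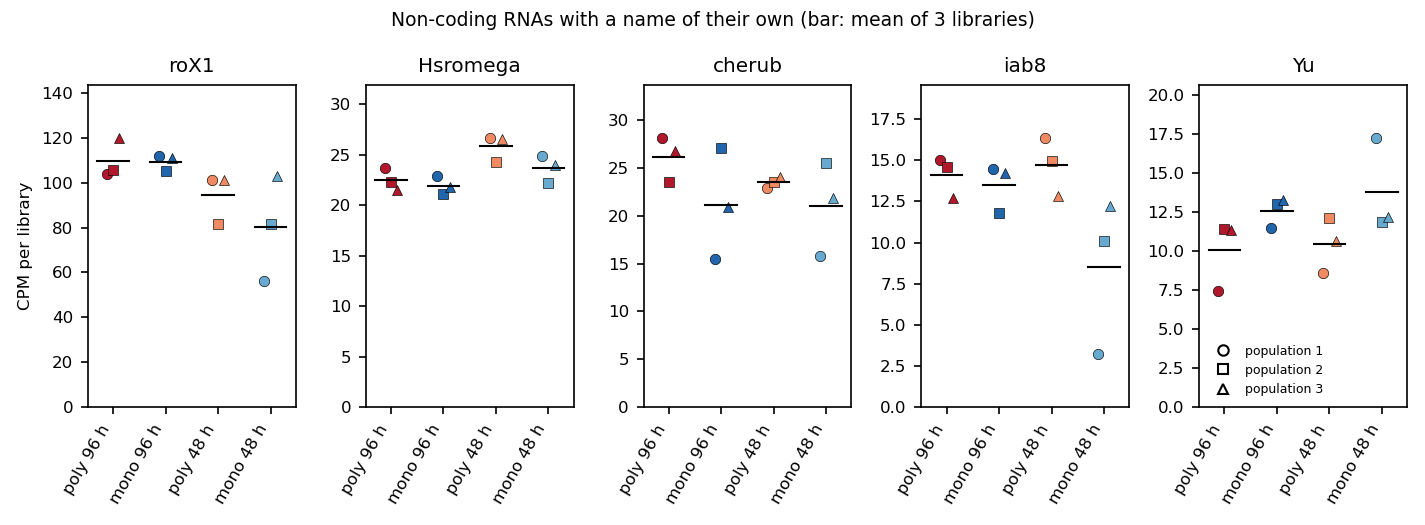
CPM per library for the 5 members with a name of their own, on linear axes that start at 0, with 1 point per library, shapes for populations and bars for means of 3 libraries. roX1 lies at 104 to 120 CPM at 96 h, above all libraries of 48 h, and monogamous population 1 at 48 h is the lowest point for roX1 and for iab8 (3.25 CPM).

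Age was the first difference the design allows, and it asks how the tract matures over the first days of adult life. In the fit without a population term, 1 of 218 members was called at an adjusted p under 0.05 for 96 h against 48 h averaged over regimes, beside 1.57% of the 13156 genes tested. With the population as a block, which pairs the ages of each population, 11 were called, 4 higher and 7 lower, beside 3.38% of all genes; at an unadjusted p under 0.05 the counts were 41 without the block (18.8% of members, beside 17% of all genes) and 59 with it (27.1%, beside 22.4%). The median log2 difference was -0.05 over members and 0.01 over all genes, and 144 of 218 members lay below 0. These were 56% of X-linked and 67.4% of autosomal members, beside 45.7% and 49.9% of X-linked and autosomal genes with 10 CPM or more. Without monogamous population 1 the median was 0.006 over members and 0.009 over all genes, and 101 of 218 members lay below 0. With all libraries, scaling by library size alone put 96 of 218 members below 0 and moved the median of all genes to 0.08. It called 9 members, 8 of them higher, beside 5.03% of all genes. DESeq2 called 15, 7 higher and 8 lower, beside 4.41%. On CPM, 20 members (9.17%) were higher at 96 h in 6 of 6 populations, beside 20.4% of all genes tested and 26.2% of those with 10 CPM or more. Lower in all 6 were 11 members (5.05%), beside 2.9% and 2.26%. Without monogamous population 1 these counts were 62 (28.4%) higher, beside 30% and 38.7%, and 16 (7.34%) lower, beside 6.64% and 7.23%.

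lncRNA:CR43358 (2L, 18293733 to 18294056, minus strand, 271 bp in 2 exon blocks) fell. It had 61.2, 70.7 and 68.3 CPM in polygamous males and 44.3, 27.1 and 46.1 CPM in monogamous males at 96 h, against 115, 182 and 170 CPM in polygamous males and 74.5, 49.8 and 84.4 CPM in monogamous males at 48 h. Within each of the 6 populations the 96 h library was the lower, although the ages overlapped across regimes. The log2 difference was -1.10 ± 0.18 (SE, adjusted p = 0.0159; -1.09 ± 0.07, adjusted p = 0.000496 with the block). The direction held in each refit without 1 library. The adjusted p then reached at most 0.0599, and the call was lost without any of the 3 polygamous libraries of 96 h and without polygamous population 3 at 48 h.

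Under the block 7 members fell, among them Hsromega and lncRNA:CR43358, described above. lncRNA:CR44389, the highest member per kilobase, had 430, 425 and 439 CPM in polygamous males and 361, 408 and 499 CPM in monogamous males at 96 h, against 531, 597 and 644 CPM in polygamous males and 426, 510 and 583 CPM in monogamous males at 48 h. It was lower at 96 h in 6 of 6 populations and the ages did not overlap within polygamous males (log2 -0.43 ± 0.04, adjusted p = 0.0037 with the block, and 0.0524 without it). lncRNA:CR43239 had 105 CPM at the lowest, 155 at the median and 244 at the highest at 96 h, against 165, 249.5 and 429 CPM at 48 h (log2 -0.73 ± 0.10 with the block, adjusted p = 0.0147). It was lower at 96 h in every population, and nearly level in monogamous population 1, with 164 CPM at 96 h and 165 CPM at 48 h. lncRNA:CR43634 (log2 -0.66 ± 0.12) and lncRNA:CR43994 (log2 -0.52 ± 0.10) were lower in 5 of 6 populations, and lncRNA:CR44557 (log2 -0.53 ± 0.08) in 4 of 6, with monogamous population 1 or monogamous populations 1 and 2 as the exceptions. Without the block lncRNA:CR44557 was not called (log2 -0.55 ± 0.39, adjusted p = 0.501). With 1 library left out its log2 difference then lay between -0.80 and -0.28 (adjusted p = 0.293 to 0.726), at -0.28 without monogamous population 3 at 48 h and -0.36 without polygamous population 3 at 48 h.

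Members that rose under the block were lncRNA:CR45113, lncRNA:CR43612, lncRNA:CR43404 and lncRNA:CR45902, each higher at 96 h in 6 of 6 populations. lncRNA:CR45113 (3L, 6305671 to 6306164, plus strand) had 76.2, 82.8 and 78.6 CPM in polygamous males and 70.3, 65.4 and 87.0 CPM in monogamous males at 96 h, against 59.0, 58.6 and 60.5 CPM in polygamous males and 24.0, 38.5 and 50.0 CPM in monogamous males at 48 h. The ages did not overlap, and the lowest value was that of monogamous population 1 at 48 h (log2 0.65 ± 0.10 with the block, adjusted p = 0.0171; 0.53 ± 0.03 also without monogamous population 1). Its neighbour lncRNA:CR45114, 167 bp away on the other strand, had 18.3 to 20.7 CPM at 96 h and 5.87 to 18.0 CPM at 48 h (log2 0.57 ± 0.14 with the block, adjusted p = 0.0817; 0.40 ± 0.06 also without monogamous population 1). For lncRNA:CR43612 the log2 difference with the block was 0.60 ± 0.11, for lncRNA:CR43404 it was 0.50 ± 0.10 and for lncRNA:CR45902 it was 0.47 ± 0.09 (adjusted p = 0.0296, 0.0394 and 0.0433). These differences without monogamous population 1 and with the block were 0.49 ± 0.06, 0.39 ± 0.05 and 0.38 ± 0.06.

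In 7 members, lncRNA:CR42862, roX1, lncRNA:CR45113, lncRNA:CR43146, lncRNA:CR45114, lncRNA:CR43404 and lncRNA:CR43104, all libraries of 96 h lay above all libraries of 48 h, which is 3.21% of members beside 4.49% of all genes tested. In no member did they lie below, beside 0.646% of all genes. The largest log2 difference of these 7, that of lncRNA:CR43146, was 0.74 ± 0.20 (adjusted p = 0.109), with 38.3 to 46.6 CPM at 96 h and 8.93 to 33.9 CPM at 48 h. Monogamous population 1 at 48 h was the lowest library of lncRNA:CR43146, and without that population the log2 difference was 0.58 ± 0.07 (adjusted p = 0.00279).

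The count of calls depended on single libraries. It was 16 (9 higher, 7 lower) without monogamous population 1, beside 6.19% of all genes, and 66 (35 higher, 31 lower) without that population and with the block, a fit chosen once the data had been seen, beside 22.1% of all genes. Leaving out 1 library at a time gave 18 calls without monogamous population 1 at 48 h, 9 without monogamous population 3 at 48 h, 3 without monogamous population 3 at 96 h, and 0 without any polygamous library of 96 h or polygamous population 3 at 48 h. The share of all genes called is not given for these refits, so their counts do not set members apart from other genes. As a share of members, the calls were 0.459% in the fit without a population term, 5.05% with the block, 7.34% without monogamous population 1 and 30.3% with both changes. Of all genes with 10 CPM or more, the same fits called 1.53%, 3.12%, 8.17% and 29.8%.

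**Figure D3:**
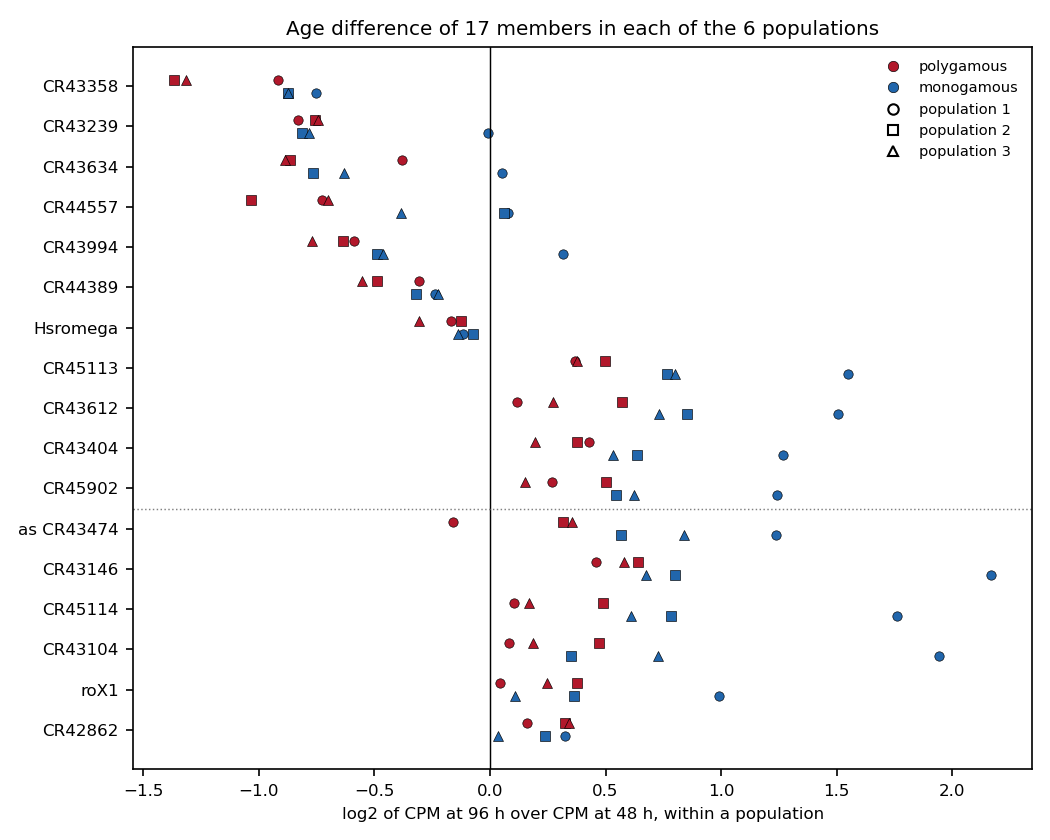
log2 of the CPM at 96 h over the CPM at 48 h within each population, for the 11 members called with the population as a block (above the dotted line) and 6 further members named in the text (below it); red points are polygamous and blue points monogamous populations. CR43358 lies below 0 in all 6 populations, and monogamous population 1 (blue circles) gives the largest ratio for CR45113, CR43612, CR43404, CR45902, asRNA:CR43474, CR43146, CR45114, CR43104 and roX1.

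Within monogamous males, 1 of 218 members was called for 96 h against 48 h, beside 0.486% of all genes. This was asRNA:CR43474 (3R, 22629575 to 22630671, plus strand), which had 31.7, 27.7 and 34.2 CPM at 96 h and 13.5, 18.7 and 19.1 CPM at 48 h in monogamous males. The ages did not overlap there (log2 0.81 ± 0.14, adjusted p = 0.0429), and all 3 populations were higher at 96 h. In polygamous males it had 23.2, 29.5 and 28.7 CPM at 96 h and 25.9, 23.6 and 22.4 CPM at 48 h, where the ages overlapped (log2 0.10 ± 0.14, adjusted p = 0.988). Without monogamous population 1 its adjusted p in monogamous males was 0.0768 and lncRNA:CR43146 was called in its place (log2 0.68 ± 0.11, adjusted p = 0.0392), beside 0.665% of all genes. With no filter 0 were called, beside 0.274%, and DESeq2 called 10, beside 2.36%. The count of calls was 0 without 9 of the 12 libraries, each left out alone, 3 without monogamous population 1 at 48 h and 6 without monogamous population 3 at 48 h. It was 1 without monogamous population 2 at 96 h. For these refits the share of all genes called is not given. The exons of this RNA lie to 94.1% opposite those of loco, which encodes a regulator of G protein signalling and had a log2 age difference of 0.10 ± 0.05 on average (adjusted p = 0.309). With the block, 7 members were called in monogamous males, 5 higher and 2 lower, beside 1.5% of all genes. Those higher were asRNA:CR43474, lncRNA:CR45113, lncRNA:CR43612, lncRNA:CR43489 and lncRNA:CR45013, and those lower were lncRNA:CR43358 and lncRNA:CR44389. The count without monogamous population 1 and with the block was 28 (12.8%), 20 higher and 8 lower, beside 8.26% of all genes and 10.6% of those with 10 CPM or more.

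Within polygamous males, 0 members were called by edgeR, beside 0.0608% of all genes, with 15 at an unadjusted p under 0.05 (6.88%, beside 7.43% of all genes) and 4 called by DESeq2, beside 0.847%. With the block, lncRNA:CR43358 (log2 -1.28 ± 0.09), lncRNA:CR44389 (log2 -0.53 ± 0.06) and lncRNA:CR44557 (log2 -0.90 ± 0.12) were called lower, beside 0.319% of all genes. Without monogamous population 1, 8 (3.67%) were called, beside 2.77% of all genes and 3.96% of those with 10 CPM or more. Without its 48 h library alone the count was 9, with no share of all genes given. With the block and without that population it was 39 (17.9%), beside 15.1% of all genes and 21.2% of those with 10 CPM or more.

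The difference between the regimes' age changes was called for 0 members by edgeR and by DESeq2, and for 0% of all genes, with 10 members at an unadjusted p under 0.05 (4.59%, beside 2.55% of all genes). The member with the smallest p was asRNA:CR43474, with a difference of log2 -0.71 ± 0.20, polygamous minus monogamous (adjusted p = 0.92). With monogamous population 1 left out and the block in the fit, 5 members were called, beside 0.832% of all genes. These were lncRNA:CR43489 (log2 -0.50 ± 0.09), lncRNA:CR43633 (-0.41 ± 0.07), lncRNA:CR45013 (-0.37 ± 0.06), lncRNA:CR45113 (-0.40 ± 0.06) and asRNA:CR45882 (-0.53 ± 0.09), and in each of them the change was the smaller, or more negative, in polygamous males. The same direction held for 105 of the 110 genes called in that fit. Its median difference over members was -0.04, with 134 of 218 below 0. With all libraries and no block the median over members was 0.10, with 157 of 218 above 0.

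Regime was the second difference, and it asks what evolution with or without male competition left in the tract. At 48 h, 0 of 218 members were called by edgeR for polygamy against monogamy, as were 0% of all genes, and DESeq2 called 9, beside 1.09% of all genes it tested. At an unadjusted p under 0.05 the count was 77 (35.3% of members, beside 17.1% of all genes), with 22 higher and 55 lower in polygamous males. The median log2 difference was -0.18 over members and -0.00 over all genes, and it was -0.07 over members without monogamous population 1, where 39 members had an unadjusted p under 0.05 (17.9%, beside 12.8% of all genes). All 3 polygamous libraries of 48 h lay below all 3 monogamous ones in 53 members (24.3%), beside 10.2% of all genes, and above them in 22 (10.1%), beside 11.8%. Without monogamous population 1 the count below was 56 (25.7%), beside 14.4%, and the count above was 28 (12.8%), beside 16.6%.

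At 96 h, again 0 members were called by edgeR, beside 0% of all genes, and 0 by DESeq2, beside 0.15%, and 10 members had an unadjusted p under 0.05 (4.59%, beside 3.34% of all genes). The median log2 difference was -0.06 over members, with 147 of 218 below 0, and polygamous libraries lay below monogamous ones without overlap in 18 members (8.26%), beside 3.62% of all genes, and above them in 7 (3.21%), beside 7.68%. Without monogamous population 1, 31 members had an unadjusted p under 0.05 at 96 h (14.2%, beside 7.77% of all genes). The median over members was then -0.10, with 173 of 218 below 0. With the ages summed per population, 0 members were called by edgeR, beside 0% of all genes, 7 were called by DESeq2, beside 0.588%, and 50 had an unadjusted p under 0.05 (22.9%, beside 9.51% of all genes). The median log2 difference was then -0.10 over members and 0.01 over all genes. It was -0.09 over the 25 X-linked members, 19 of them below 0, and -0.10 over the 193 others. X-linked genes with 10 CPM or more had a median of 0.03. Without monogamous population 1, 35 members had an unadjusted p under 0.05 in summed counts (16.1%, beside 8.53% of all genes). The median over members was then -0.08, with 163 of 218 below 0.

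Over both ages together, all 6 polygamous libraries lay below all 6 monogamous ones in 6 members, beside 0.676% of all genes tested, and above them in 1 member, beside 0.699%. asRNA:CR45281 had 12.3 CPM at the lowest, 15.8 at the median and 19.1 at the highest in polygamous libraries, against 20.2, 24.2 and 25.6 CPM in monogamous ones (log2 -0.60 ± 0.13 in summed counts, adjusted p = 0.519; adjusted p = 0.0072 by DESeq2). It lies opposite the odorant receptor gene Or45b and the phosphatase gene Alp6, which had 0.0021 and 0.689 CPM. asRNA:CR45367, opposite the nucleoside transporter gene Ent1 over 91.3% of its length, had 8.93, 11.8 and 18.7 CPM in polygamous libraries, against 18.8, 20.8 and 25.2 CPM in monogamous ones (log2 -0.67 ± 0.24). The groups did not overlap, but the highest polygamous and the lowest monogamous library were nearly level.

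Of the others, lncRNA:CR44131 had 50.7, 58.1 and 52.1 CPM at 96 h and 51.5, 54.5 and 48.8 CPM at 48 h in polygamous males, against 58.9, 72.4 and 64.7 CPM at 96 h and 69.4, 70.8 and 66.2 CPM at 48 h in monogamous males. Its polygamous values were the lower at both ages (log2 -0.36 ± 0.07 in summed counts, adjusted p = 0.519; adjusted p = 0.00559 by DESeq2). lncRNA:CR32658 (log2 -0.19 ± 0.05), lncRNA:CR9284 (-0.24 ± 0.04) and asRNA:CR44027 (-0.25 ± 0.08) completed the 6. asRNA:CR45343 was the one member above, with 22.6 to 29.5 CPM in polygamous and 10.6 to 22.3 CPM in monogamous libraries (log2 0.36 ± 0.13). With 1 population left out its log2 difference lay between 0.23 and 0.49, and it was 0.23 (adjusted p = 0.58) without monogamous population 1. lncRNA:CR43358, the member that fell with age, was higher in polygamous males at each age without overlap (log2 1.16 ± 0.25 at 48 h, 0.75 ± 0.25 at 96 h and 1.03 ± 0.24 in summed counts, adjusted p = 0.24, 1 and 0.519). DESeq2 called it at 48 h and in summed counts (adjusted p = 0.00221 and 0.00103).

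**Figure D4:**
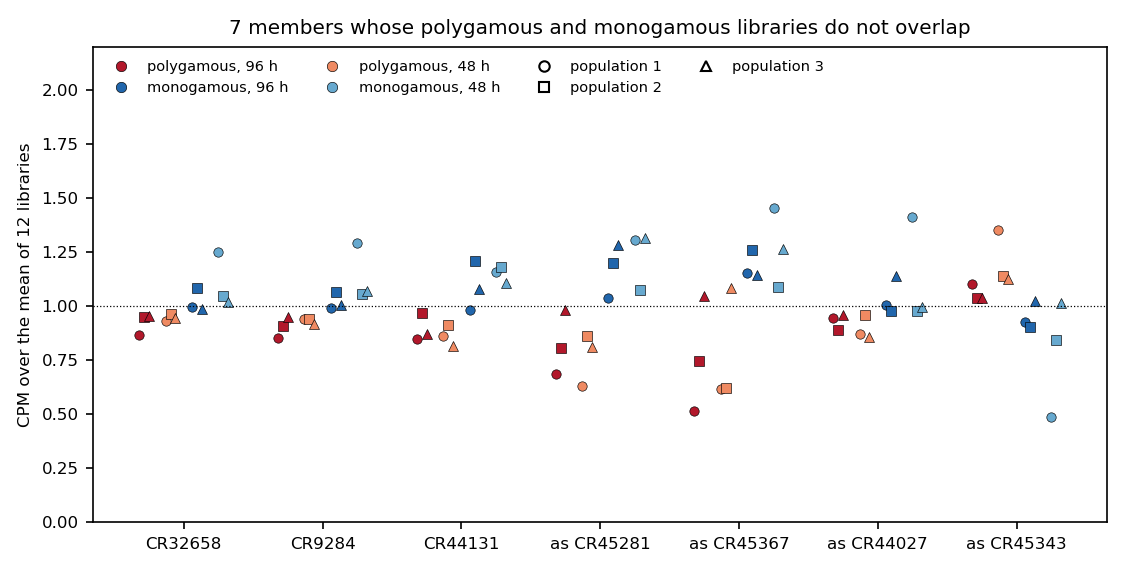
CPM of each library divided by the mean of the 12 libraries, for the 7 members whose 6 polygamous and 6 monogamous libraries do not overlap; polygamous libraries stand left of monogamous ones in each column. In 6 members the polygamous points lie lower, and in asRNA:CR45343 they lie higher, where monogamous population 1 at 48 h (10.6 CPM) is far below the rest.

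Monogamous population 1 at 48 h moved with the regime result at that age. In it, members stood at a median of 1.21 times their mean in the other libraries of 48 h, against 1.00 times for all genes with 10 CPM or more. In it 25 members (11.5%, beside 2.88% of genes with 10 CPM or more) were over 1.5 times higher and 44 (20.2%, beside 14.7%) over 1.5 times lower. The highest ratio was 3.40, for lncRNA:CR43414, and the lowest 0.245, for iab8. Since lncRNA:CR43414 reached the threshold of 10 CPM only through monogamous population 1, its ratio is a description only. The part of the shifted marker sums of this library in these ratios was not tested.

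The populations of a regime are separate lines, and both ages of a population come from the same line. In a test of population within regime, added after the data were seen, 24 of 218 members (11.0%) were called, beside 5.08% of all genes tested and 4.15% of those with 10 CPM or more. Without monogamous population 1 it called 92 (42.2%), beside 21.5% and 25.6%. On CPM averaged over ages, the highest population exceeded the lowest over 2 times in 24 members (11.0%), beside 2.75% of genes with 10 CPM or more, and without monogamous population 1 in 14 (6.42%), beside 1.51%. Polygamous population 1 was the lowest population for 82 members. Monogamous population 1 was the highest for 99 and the lowest for 47. Such counts were not made for other genes. The members named next were chosen for their ratios between populations, so their values are a description.

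lncRNA:CR43453 was nearly missing from polygamous population 3. There it had 95 counts (2.51 CPM) at 96 h and 1 count (0.028 CPM) at 48 h, while the other 10 libraries held 376 to 649 counts, or 11.1 to 16.0 CPM. Both ages of polygamous population 3 are the lowest of all libraries. The population test did not call it (adjusted p = 0.201). lncRNA:CR43130 had 3.05 CPM at 96 h and 2.38 CPM at 48 h in polygamous population 1, against 7.63 to 23.5 CPM in the other libraries. lncRNA:CR44208 ranged over populations of the same regime, with 4.03, 10.5 and 29.5 CPM in polygamous populations 1 to 3 at 96 h and 4.57, 13.2 and 30.7 CPM at 48 h, and both ages gave the same order.

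lncRNA:CR44136 was low in polygamous population 3, with 8.48 CPM at 96 h and 4.03 CPM at 48 h, against 13.7 to 34.4 CPM elsewhere. lncRNA:CR43414 was high in monogamous population 1, with 22.0 CPM at 96 h and 23.8 CPM at 48 h, against 5.65 to 10.7 CPM elsewhere. It was the highest at both ages. Its means over both ages were 6.14 to 9.08 CPM in the other populations. It thus reached the threshold of 10 CPM only through monogamous population 1, and its excess there is a description only. lncRNA:CR43808 combined a population and an age difference, with 14.1 CPM at 96 h and 10.6 CPM at 48 h in polygamous population 1, against 48.1 to 55.8 CPM at 96 h and 17.1 to 41.7 CPM at 48 h in the others. It was higher at 96 h in 6 of 6 populations. The abundant asRNA:CR44370 was low in polygamous population 2, with 362 CPM at 96 h and 340 CPM at 48 h, against 548 to 723 CPM in the other libraries (adjusted p = 0.00549 for populations). lncRNA:CR43358 also differed between populations (adjusted p = 0.0245).

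**Figure D5:**
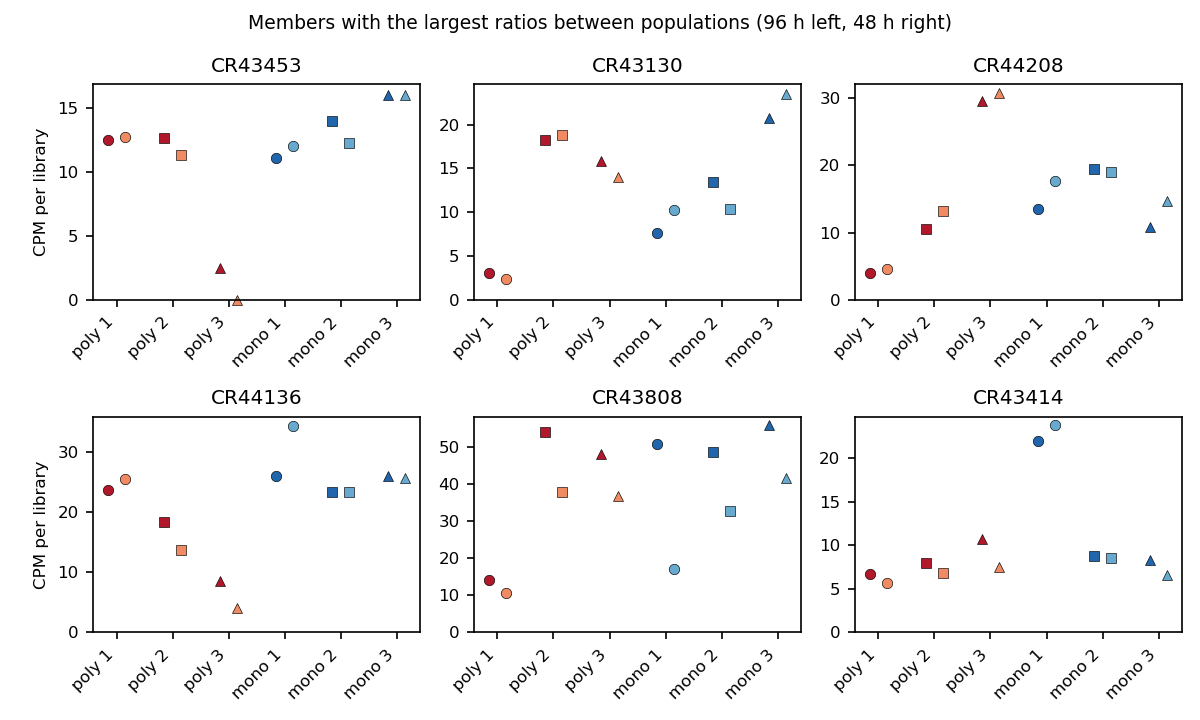
CPM in each of the 6 populations for the 6 members with the largest ratio between the highest and the lowest population, on linear axes that start at 0, with the 96 h library left and the 48 h library right in each population. In CR44208 the polygamous populations stand in the same order at both ages, and polygamous population 3 lies at 2.51 and 0.028 CPM in CR43453. CR43414 is a member only through its level in monogamous population 1.

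Antisense position and partner levels were described last. Exons of another gene lay on the opposite strand for 67 members (30.7%), 52 of the 55 named asRNA and 15 named lncRNA, with an overlap of 50% or more of the member in 40 and of 100% in 3. For the 61 members with a coding partner, partner means ran from 0 to 439 CPM with a median of 15.4 CPM. asRNA:CR44370 had 103 CPM per kb and is opposite to 249 bp of Fs, which encodes follistatin and had 0.408 CPM per kb. asRNA:CR43474 had 22.7 CPM per kb and its partner loco 4.25 CPM per kb. Of the coding partners of the 61 members, 1 was called for age without the block, beside 1.57% of all genes, and 2 with it, beside 3.38%. These were Nap1, a histone chaperone opposite asRNA:CR45926 that rose (log2 0.39 ± 0.05, adjusted p = 0.00446), and with the block Mct1, a monocarboxylate transporter opposite asRNA:CR43637 that fell (log2 -1.38 ± 0.24, adjusted p = 0.0285). Mct1 had 0.367 to 1.18 CPM at 96 h and 1.26 to 5.32 CPM at 48 h, with monogamous population 1 at 48 h the highest, and its log2 difference was -1.18 ± 0.22 (adjusted p = 0.00216) without that population and with the block. Neither antisense RNA was called (adjusted p = 0.589 for asRNA:CR45926 and 0.819 for asRNA:CR43637).

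The table held counts for genes that lie wholly under exons of the other strand: of 129 such genes, 61 had 1 CPM or more, against 1 of 346 genes that lie wholly under exons of their own strand. On the same strand, 10 members overlapped another gene, by at most 14.6% of their length, among them lncRNA:CR42862 with CG33229 over 4.48%, and counts of such overlapping pairs are uncertain. Of 12 tMAC and tTAF genes listed as regulators of spermatocyte transcription, 0 were called for age with all libraries (median log2 0.11) and 0 for regime at either age; without monogamous population 1 and with the block, 5 were called higher at 96 h (aly, comr, vis, can and sa, log2 0.17 to 0.20), beside 22.1% of all genes and 29.8% of those with 10 CPM or more.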

How the data were processed

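Counts per gene were deposited by the authors for 12 libraries of stranded total RNA; per the submitters' processing notes the tools were Trimmomatic 0.33, TopHat2 2.1.0 and HTSeq 0.6.1 with build BDGP6. The annotation release, strand setting and counting mode are not given in the sources used here. Summary lines, 15.1% to 17.2% of each table, were dropped. Symbols came from an Ensembl annotation of the same assembly, which named 17253 of 17559 genes, and exon overlap and length from its exons.

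The counts were fitted with edgeR 4.0.16 (limma 3.58.1, R 4.3.3): TMM scaling, filterByExpr, 1 coefficient per group and the quasi-likelihood test, with Benjamini-Hochberg adjustment over all 13156 genes tested and calls at an adjusted p under 0.05. For regime over both ages, counts were summed per population (13512 genes tested). DESeq2 1.42.0, other scalings, no filter, a population block and left-out libraries were alternatives. Errors of log2 differences are standard errors. The fit without a population term was tested on simulated counts with a set age change. These counts held no differences between populations, so they do not bear on the block or on the spread between populations.

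The libraries of a population at 96 h and 48 h deviated from their group means together (Pearson r = 0.473, 0.459 and 0.570 in monogamous and 0.507, 0.390 and 0.518 in polygamous populations, across genes), and both ages come from 1 line, so the block pairs them. The labels give no batch.

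Members named were those called in a comparison, the 10 highest by CPM or by CPM per kb, those with a name, the 3 nearest the threshold on each side, and those whose ages did not overlap. Members named for the block, regime and population results were chosen after their values were seen. The set and all lists were chosen with earlier results of these data known. Markers vas, nos, don, PPO1, wupA and para were not analysed here.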

Additional observations from a re-analysis of the deposited data

Results flagged for a closer look

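Among 70 sets of 6 libraries of 1 age, 10 values stood far from the rest by Dixon's ratio. Chance gives about 1 in 20 for independent sets drawn from 1 group. These sets mix both regimes and share the same 12 libraries, so that rate is only a rough guide. Of the 10 values, 6 were in monogamous population 1 at 48 h. In that library lncRNA:CR32658 was high at 1308 CPM (972 to 1093 CPM in the other 5), lncRNA:CR44455 at 213 CPM (139 to 150.4 CPM), lncRNA:CR46046 at 13.4 CPM (8.67 to 10.4 CPM) and lncRNA:CR43807 at 12.8 CPM (9.26 to 10.3 CPM). In the same library lncRNA:CR43994 was low at 27.3 CPM (58.0 to 72.1 CPM) and lncRNA:CR43104 at 3.16 CPM (8.25 to 10.4 CPM). At 96 h, asRNA:CR44370 was low in polygamous population 2 at 362 CPM (548 to 638 CPM in the others) and Yu in polygamous population 1 at 7.46 CPM (11.3 to 13.3 CPM). At the same age lncRNA:CR32690 was high in monogamous population 2 at 520.4 CPM (449 to 467 CPM) and lncRNA:CR43807 in monogamous population 3 at 11.4 CPM (9.16 to 9.91 CPM).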

How the results depend on the processing

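For age averaged over regimes, where 1 member was called, the count was 9 with library size alone, 11 with the population block, 15 with DESeq2, 16 without monogamous population 1, 66 without it and with the block, and 0 to 18 with 1 library left out. For age in monogamous males, where 1 was called, it was 0 with no filter, 7 with the block, 10 with DESeq2, 28 without monogamous population 1 and with the block, and 0 to 6 with 1 library left out. For age in polygamous males, where 0 were called, it was 3 with the block, 4 with DESeq2, 8 without monogamous population 1, 39 with the block as well, and 0 to 9 with 1 library left out. DESeq2 called 9 members for regime at 48 h and 7 in summed counts. The difference of the age changes gave 5 without monogamous population 1 and with the block, and the population test 92 without that population. The cause of these changes was not tested. For refits with 1 library left out no share of all genes is given, so their counts do not set members apart from other genes. Leaving out 1 library gave 0 to 0 calls for the regimes and the difference of age changes. Between regimes the shared number is only a number: with it as a block, 0 members were called at 48 h, at 96 h and in summed counts (85, 11 and 42 at an unadjusted p under 0.05, or 39%, 5.05% and 19.3% of members, beside 18.7%, 4.54% and 7.58% of all genes). Of single-member values, cherub reversed for age in 4 of the refits without 1 library (-0.07, -0.10, -0.02 and -0.00, in a range of -0.10 to 0.10), and asRNA:CR43474 for regime in summed counts without monogamous population 1 (-0.0040, in a range of -0.0040 to 0.12 with 1 population left out). With 3 populations per regime and 1 pool per age, small differences are beyond this design.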
